A study of Mus musculus with 7 samples.

Results

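The genes described here are 8 components of the caspase cascade, chosen by symbol from a table of 22877 genes (22876 different symbols): the initiator caspases Casp2, Casp8 and Casp9, the executioner caspase Casp6, the apoptosome components Apaf1 and Cycs, and the caspase inhibitor Xiap with its antagonist Diablo. All 8 had a value. RNA was sequenced from oocytes of secondary follicles of mice whose oocytes lack mitofusin 1, a protein of the outer mitochondrial membrane that mediates fusion of mitochondria, and of wild-type mice. Each library held amplified cDNA of 5 pooled oocytes. The comparison asks which transcripts differ in the oocyte when Mfn1 is deleted there.

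The Mfn1-/- females carried floxed Mfn1 alleles and a Cre recombinase driven by the Zp3 promoter, which is active in growing oocytes, so that granulosa cells keep the gene. WT females served as controls. Both genotypes were on the C57BL/6J strain and 8 weeks old. The sample labels give 4 WT and 3 Mfn1-/- libraries, whereas the text of the study gives 3 for each genotype. The value used is the authors' mean of normalized counts, 1 value per genotype and gene. A weighted sum of the means, with 3 libraries for Mfn1-/- and 4 for WT, matched the authors' total over libraries within 1% in 100% of genes. Single libraries were not analysed here, and the authors' own comparison of the genotypes was not used. No difference below is therefore set against the spread between replicates, no p-value is given, and the depth behind each value is unknown.

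Caspases are proteases that dismantle a cell during apoptosis. Initiator caspases are activated on protein platforms: CASP8 at death receptors, CASP2 on a complex of PIDD1 and CRADD, and CASP9 on the apoptosome, which APAF1 builds when it binds cytochrome c released from mitochondria. CASP8 and CASP9 cleave executioner caspases, which cut the structural and nuclear proteins of the cell. XIAP binds and blocks CASP9, and DIABLO, once out of the mitochondria, displaces XIAP. Most oocytes of a mammalian ovary are lost by cell death, and Casp2 has been tied to oocyte loss in mice.

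Mfn1 (chr3:32529465-32579239 on GRCm38) had a mean of 0.0577 normalized counts in Mfn1-/- oocytes against 0.616 in WT, a ratio of 0.0937, in the direction that the labels give. Of 14 oocyte markers, all 14 had a value, and 0 were past 2-fold in either direction. Their most abundant gene, Ooep, had means of 1310 in Mfn1-/- oocytes against 1120 in WT, and the list summed to 4902 and 4776. Kit (0.679 and 0.922) and Ddx4 (2.74 and 1.51) had lower means than the rest, which had at least 18.7 in both genotypes. Kit and Ddx4 were named after their values were seen.

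The authors' scale is not stated. The lowest mean in the table is 0.01. Above it, the smallest values fell with the exon length of the gene: the 1st percentile of the Mfn1-/- means, after 0.01 was subtracted, went from 0.0020 in the eighth of genes with the shortest exons to 0.0002 in the eighth with the longest. Values divided by length would fall in this way, and levels of different genes are compared below on the reading that the scale is per length.

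On that scale the 8 genes spanned a wide range of levels. In WT oocytes the order of the means was Cycs, Diablo, Casp8, Casp6, Casp2, Casp9, Xiap and Apaf1, from 28.0 down to 0.0492 normalized counts. In Mfn1-/- oocytes Casp6 stood before Casp8 and the other places were the same, from 21.0 for Cycs down to 0.0282 for Apaf1. Which neighbours in this order differ beyond their spread cannot be said from 1 mean per genotype. Cycs lay at percentile 95.8 of all genes by the mean over libraries and Diablo at percentile 87.1, whereas Apaf1 lay at percentile 25.6. A mean over libraries of at least 0.1 was reached by 7 of the 8 genes, all but Apaf1, and of at least 1 by 4.

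**Figure D1:**
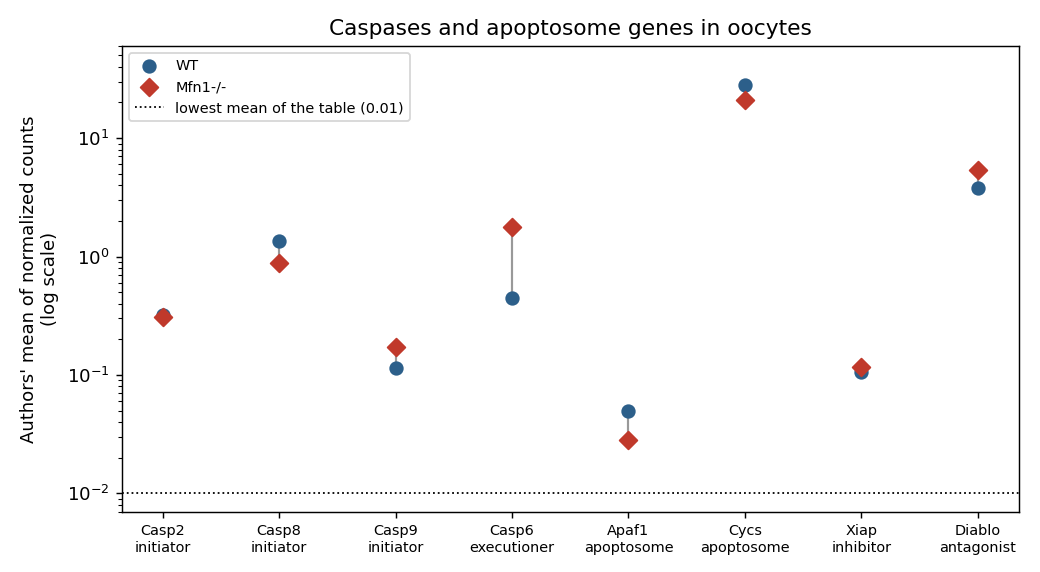
Authors' mean of normalized counts (log axis) for each of the 8 genes in WT (circles) and Mfn1-/- (diamonds) oocytes, 1 mean per genotype with no error; the dotted line is the lowest mean of the table, 0.01. The pair of points lies farthest apart for Casp6, at 0.449 in WT and 1.78 in Mfn1-/- oocytes.

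A log2 fold change was computed from the ratio of the genotype means after a pseudocount of 0.1 was added to each, so that the change of a gene with a low mean comes out too small. A gene is called past 2-fold where this value is above 1 or below -1. Of the 8 genes, 1 was past 2-fold, Casp6, which was higher in Mfn1-/- oocytes. Over all 22877 genes, 7.61% were past 2-fold, 4.87% higher and 2.75% lower, so a count of 1 in 8 sets the group apart in neither direction. Of the 8 genes, 4 had a higher and 4 a lower mean in Mfn1-/- oocytes. The median of their log2 fold changes was 0.02, against 0.04 over all genes. Genes with a mean of at least 1 had a median of 0.16. With that median set to 0, Xiap changed sign, so that 3 of the 8 were higher and 5 lower, and Casp6 was still past 2-fold. The split of all genes past 2-fold depends on this choice: it was 1114 higher and 628 lower as the authors scaled the means, 818 and 916 with the median set to 0, and 913 and 788 with equal sums of means.

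Among the initiators, Casp8 had the highest level and, with the pseudocount of 0.1, the log2 fold change farthest from 0. With no pseudocount, Casp8 and Casp9 changed by nearly the same size in opposite directions, at -0.60 and 0.58. Casp8 (chr1:58795374-58847503), whose product starts apoptosis at death receptors, had means of 0.886 normalized counts in Mfn1-/- oocytes against 1.34 in WT. Its log2 fold change was -0.55, and -0.71 relative to the median of expressed genes. To judge such a value, each gene was set beside the genes whose mean over libraries lies within 2-fold of its own, called genes of like level here. Of the 3577 genes of like level, 10.6% had a log2 fold change as low as that of Casp8 or lower. Casp9 (chr4:141793612-141815976), the caspase that the apoptosome activates, had means of 0.172 in Mfn1-/- oocytes against 0.115 in WT, with a log2 fold change of 0.34. Its value was reached or exceeded by 27.6% of 4984 genes of like level. Casp2 (chr6:42264985-42282508) had nearly equal means, 0.310 and 0.322, and a log2 fold change of -0.04. The initiators thus lay within 2-fold, with Casp8 lower, Casp9 higher and Casp2 close to 0. Casp9 shares 94 exonic bases with each of Cela2a and Ctrc on the opposite strand. The means of Cela2a were 0.0328 and 0.268, and those of Ctrc 0.0164 and 0.0210, in Mfn1-/- and WT oocytes. Library construction with Smart-Seq2 and Nextera XT does not mark strand, and reads from overlapping genes on opposite strands cannot be told apart.

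Of the executioners, Casp6 alone is among the 8 genes. Its product cleaves nuclear lamins and other caspases. Casp6 (chr3:129901425-129914103) had means of 1.78 normalized counts in Mfn1-/- oocytes against 0.449 in WT, a ratio of 3.96, and its log2 fold change was 1.78, or 1.62 relative to the median of expressed genes. Among 3711 genes of like level, 9.67% were past 2-fold higher, and 92 genes, 2.48%, had a log2 fold change as high as that of Casp6 or higher. With a pseudocount of 1, close to its level, Casp6 had a log2 fold change of 0.94 and was no longer past 2-fold. The order of the death receptor initiator and the executioner was turned: the mean of Casp6 was 0.335 times that of Casp8 in WT and 2.01 times that of Casp8 in Mfn1-/- oocytes. No other gene overlaps the exons of Casp6, and no transcript of another gene aligns with it over 300 positions at 95% identity or more.

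**Figure D2:**
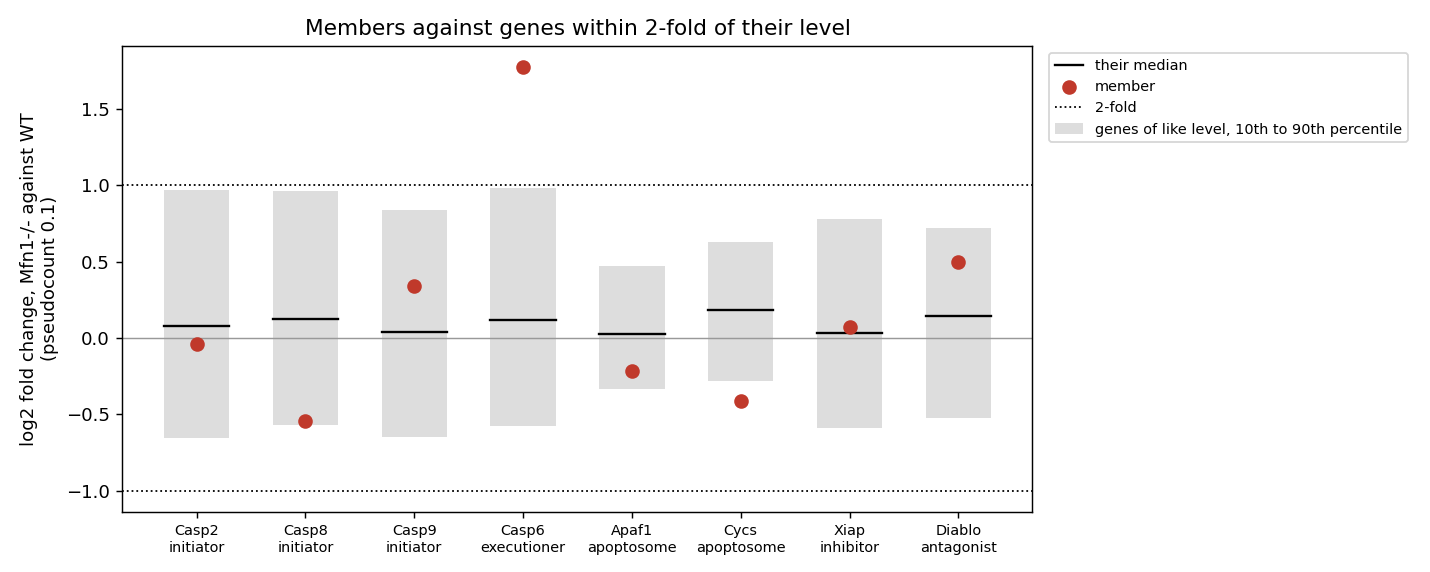
Log2 fold change of each of the 8 genes (red points; Mfn1-/- against WT, pseudocount of 0.1) over the 10th to 90th percentile (grey bars) and the median (black lines) of genes within 2-fold of its mean level; dotted lines mark 2-fold. Casp6 lies at 1.78, above a bar that ends at 0.98, and Cycs at -0.41, below a bar that starts at -0.28, while the other 6 lie inside their bars.

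Of 4 other caspases listed, Casp1, Casp4, Casp12 and Casp14, only Casp1 was analysed, a caspase of inflammation. It had low means, 0.0256 in Mfn1-/- oocytes against 0.0217 in WT, with a log2 fold change of 0.05 that turned to -0.11 with the median of expressed genes set to 0. Casp4, Casp12 and Casp14 were not analysed here.

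Both apoptosome components had a lower mean in Mfn1-/- oocytes, and neither was past 2-fold. They stood at opposite ends of the range of levels. Apaf1 (chr10:90989311-91082770), which encodes the scaffold, had means of 0.0282 in Mfn1-/- oocytes against 0.0492 in WT, close to the lowest mean of the table. Its log2 fold change of -0.22 rests on the pseudocount: adding 0.01 to the means gave -0.63, and adding 1 gave -0.03. Cycs (chr6:50562563-50566538) encodes somatic cytochrome c, an electron carrier of the respiratory chain that binds APAF1 once it is in the cytosol. Its means of 21.0 and 28.0 normalized counts gave a log2 fold change of -0.41, and -0.57 relative to the median of expressed genes. Of 1067 genes of like level, 68, or 6.37%, had a value as low as that of Cycs or lower.

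The value of Cycs has to be read beside its copies in the genome. On the same strand, 4 other genes have a transcript that aligns with that of Cycs over at least 300 positions, gaps counted, at 95% identity or more: Gm10053, an intronless gene annotated as protein-coding, and the processed pseudogenes Gm10108, Gm13772 and Gm11625. Gm10053 (chr19:24875686-24876631) matches Cycs over 946 bases at 99.9% identity, and the 318 coding bases of Cycs, stop codon included, differ from it at 0 positions. Gm10108 differs from them at 2 positions, G4A and G44A, and Gm13772 at 2 of 317 positions, C115T and G116A, counted from 1 at the first base of the start codon with the base of Cycs first. The first 120 coding bases are shown because they hold all of these differences, which are in capitals. They lie at chr6:50565541-50565660 on the minus strand for Cycs, chr19:24875753-24875872 on the plus strand for Gm10053, chr5:13121647-13121766 on the minus strand for Gm10108 and chr2:90804457-90804576 on the minus strand for Gm13772 (GRCm38, GENCODE M21 transcripts).
Cycs: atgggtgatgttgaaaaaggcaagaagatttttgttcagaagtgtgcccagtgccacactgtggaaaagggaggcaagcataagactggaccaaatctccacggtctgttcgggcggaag
Gm10053: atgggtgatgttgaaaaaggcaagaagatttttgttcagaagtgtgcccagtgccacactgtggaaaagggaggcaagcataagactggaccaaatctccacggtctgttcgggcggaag
Gm10108: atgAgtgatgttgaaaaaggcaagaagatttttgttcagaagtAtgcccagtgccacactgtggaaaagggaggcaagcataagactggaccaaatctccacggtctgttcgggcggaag
Gm13772: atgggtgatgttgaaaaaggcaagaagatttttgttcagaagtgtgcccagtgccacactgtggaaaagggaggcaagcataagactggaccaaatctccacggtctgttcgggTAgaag

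The reads were 75 bases long, and a read from this stretch of Cycs fits Gm10053 equally well. How the authors' counting treated such reads is not given in the sources used here. Gm10053 had means of 218 normalized counts in Mfn1-/- oocytes against 240 in WT, 10.4 and 8.57 times those of Cycs, with a log2 fold change of -0.14. Gm10108 had means of 30.9 and 13.9 and was past 2-fold higher in Mfn1-/- oocytes, at a log2 fold change of 1.15, which fell just under 2-fold, at 0.99, with the median of expressed genes set to 0. Gm13772, with means of 0.870 and 1.49, and Gm11625, with 0.111 and 0.273, were lower and within 2-fold, but Gm11625 was past it, at -1.23, with a pseudocount of 0.01 and, at -1.30, with none. The 4 copies and Cycs therefore went in different directions. Summed over the 5 genes, the means were 270.9 in Mfn1-/- oocytes against 283.7 in WT, a log2 fold change of -0.07, and Cycs itself held 7.75% and 9.87% of the sum. With so small a share, a difference in Cycs hardly moves the sum, which therefore neither supports nor excludes the value of -0.41 for Cycs alone.

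**Figure D3:**
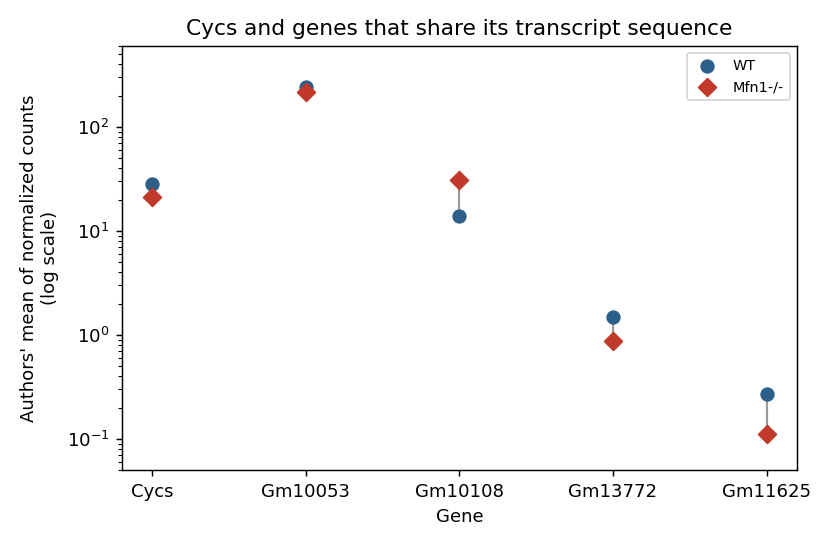
Authors' mean of normalized counts (log axis) for Cycs and the 4 genes whose transcripts align with its own over at least 300 positions, gaps counted, in WT (circles) and Mfn1-/- (diamonds) oocytes, 1 mean per genotype. Gm10053 lies highest, at 240 and 218, and Gm10108 is the gene whose Mfn1-/- point (30.9) lies above its WT point (13.9).

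Genes that supply cytochrome c or act on the apoptosome gave no common direction. The list held Hccs, the lyase that attaches heme to cytochrome c, the testis form Cyct, and the modulators Apip, Aven, Ptma and Anp32a, and all 6 were analysed. Of these, 0 were past 2-fold, 2 had a higher and 4 a lower mean in Mfn1-/- oocytes. With the median of expressed genes set to 0, Apip turned from 0.15 to a value just under 0. Ptma, whose product prothymosin alpha restrains apoptosome assembly, was the most abundant with means of 10.7 and 7.08 and a log2 fold change of 0.59.

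Short motifs were searched for in the promoters of the 8 genes. In the RefSeq promoter set (GRCm38.p6), 10 windows of 250 bases before a start site were found for the 8 genes, 3 of them for Xiap, among 32851 windows in all. Both strands were searched. The core of the site of NRF1 (GCATGCGC), a factor of nuclear genes for mitochondrial proteins, was found in the windows of Cycs and Apaf1, and in 2.26% of all windows. The cyclic AMP response element (TGACGTCA) was found in the Cycs window and in 1.55% of all windows. The CCAAT box (CCAAT) was in 4 of the 10 windows, those of Casp2, Casp8, Cycs and Diablo, and in 33.8% of all windows. The GC box (GGGCGG) was in 7 of the 10 windows and in 32.7% of all windows. Those 7 windows belong to 6 genes, Casp2, Casp6, Casp9, Apaf1, Diablo and Xiap. One form of the E2F site (TTTCCCGC) was in the Casp2 window, where it overlaps the GC box, and in 0.895% of all windows. The TATA box (TATAAA) was in 1 window, of Xiap, and in 12.4% of all windows. The other E2F form (TTTGGCGC) and the response element of C/EBP and ATF factors (TGATGNAA) were in 0 of the 10 windows and in 0.417% and 3.45% of all windows. Such matches describe letters and not binding. The windows of Cycs and Apaf1 are shown for the NRF1 core that both apoptosome genes hold, and that of Casp6 because it was the gene past 2-fold. They lie at chr6:50566570-50566819 on the minus strand, chr10:91082744-91082993 on the minus strand and chr3:129901165-129901414 on the plus strand. Capitals mark the cyclic AMP response element, the NRF1 core and the CCAAT box, in that order, in Cycs, the NRF1 core on the opposite strand in Apaf1, and the GC box in Casp6.
Cycs: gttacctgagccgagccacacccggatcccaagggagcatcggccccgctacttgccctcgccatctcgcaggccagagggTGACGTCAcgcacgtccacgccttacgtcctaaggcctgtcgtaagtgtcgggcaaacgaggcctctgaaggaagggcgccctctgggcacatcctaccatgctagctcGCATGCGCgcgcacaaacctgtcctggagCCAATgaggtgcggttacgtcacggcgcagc
Apaf1: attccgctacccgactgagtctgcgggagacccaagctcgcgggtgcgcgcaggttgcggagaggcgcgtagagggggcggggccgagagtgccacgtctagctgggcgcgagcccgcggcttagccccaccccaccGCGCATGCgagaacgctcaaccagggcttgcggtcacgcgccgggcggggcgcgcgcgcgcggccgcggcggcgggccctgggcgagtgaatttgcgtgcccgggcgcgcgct
Casp6: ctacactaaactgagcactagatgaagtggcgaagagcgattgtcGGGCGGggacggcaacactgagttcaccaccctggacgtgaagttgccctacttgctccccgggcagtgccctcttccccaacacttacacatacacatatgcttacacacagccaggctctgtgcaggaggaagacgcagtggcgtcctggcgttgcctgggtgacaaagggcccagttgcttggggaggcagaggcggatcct

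The inhibitor Xiap and its antagonist Diablo were both within 2-fold. Xiap (chrX:42059679-42109656) had means of 0.117 normalized counts in Mfn1-/- oocytes against 0.106 in WT. Its log2 fold change of 0.08 turned to -0.08 with the median of expressed genes set to 0. Diablo (chr5:123509765-123524176), the mitochondrial protein that relieves caspases of XIAP, had means of 5.40 and 3.79 and a log2 fold change of 0.50, or 0.34 relative to that median. Of 2350 genes of like level, 19.7% had a value as high as that of Diablo or higher. The mean of Diablo was 46.2 times that of Xiap in Mfn1-/- oocytes and 35.8 times that of Xiap in WT. Of the exonic bases of Diablo, 1326, or 21.5%, overlap B3gnt4 on the opposite strand. B3gnt4 had higher means than Diablo, 17.4 in Mfn1-/- oocytes against 15.4 in WT, at a log2 fold change of 0.18, and in the overlap their reads cannot be told apart. Gm49027, annotated as protein-coding, shares 1193 exonic bases, or 19.35%, with Diablo on the same strand, and AC157931.1 overlaps Diablo on the opposite strand. Gm48255 is a processed pseudogene with 311 bases like the opposite strand of Diablo. Gm49027, AC157931.1 and Gm48255 were not analysed here.

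Of other inhibitors of apoptosis, all 9 genes listed (Birc2, Birc3, Birc5, Birc6, Birc7, Naip1, Naip2, Naip5 and Naip6) were analysed, and 0 were past 2-fold, with 6 higher and 3 lower in Mfn1-/- oocytes. The tally depends on the scaling: it was 2 higher and 7 lower with the median of expressed genes set to 0, and 4 and 5 with equal sums of means. Birc5, the most abundant, which encodes survivin, a subunit of the chromosomal passenger complex of dividing cells, had means of 222 in Mfn1-/- oocytes against 201 in WT, with a log2 fold change of 0.14 that turned to -0.02 with the median of expressed genes set to 0. Naip1, a sensor of bacterial proteins, had a log2 fold change of -0.92, which was -1.08 with that median set to 0, past 2-fold.

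Among antagonists and modulators of these inhibitors, 4 of 5 listed genes were analysed and 1 was past 2-fold, with 3 higher and 1 lower in Mfn1-/- oocytes. With the median of expressed genes set to 0, and with equal sums of means, 2 were higher and 2 lower. Xaf1, which encodes a factor that binds XIAP and counters it, had means of 0.613 in Mfn1-/- oocytes against 0.126 in WT, and its log2 fold change of 1.66 shrank to 0.52 when 1 was added to the means instead of 0.1. Htra2, the most abundant of the list and a mitochondrial protease that also binds XIAP, had means of 11.4 and 7.25 and a log2 fold change of 0.65. Its exons overlap Aup1 on the opposite strand by 753 bases, with means of 3.36 and 2.02 for Aup1, and Loxl3 by 535 bases, with 0.142 and 0.132. Septin4 was not analysed here.

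The platforms on which Casp8 and Casp2 are activated gave 0 of 5 genes past 2-fold, with 1 higher and 4 lower in Mfn1-/- oocytes. Casp8ap2, the most abundant, whose product binds CASP8 and acts in histone gene expression, had means of 2.62 and 3.45 and a log2 fold change of -0.38. The gene with the higher mean was Fadd, the adaptor between death receptors and CASP8, at 2.24 and 1.53 and a log2 fold change of 0.52. Fadd was named after its value was seen.

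Of 10 caspase substrates, Parp1, Dffa, Dffb, Lmna, Lmnb1, Acin1, Gsdme, Rock1, Xkr8 and Panx1, 1 was past 2-fold, with 7 higher and 3 lower in Mfn1-/- oocytes. Xkr8, a scramblase that exposes phosphatidylserine on dying cells after caspase cleavage, had means of 1.12 in Mfn1-/- oocytes against 0.425 in WT and a log2 fold change of 1.22, or 0.57 with a pseudocount of 1. Rock1, which had the highest mean over libraries but not the highest mean in either genotype, a kinase behind membrane blebbing, had means of 0.932 and 1.24 and a log2 fold change of -0.38.

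Of 6 genes that control the release of cytochrome c from mitochondria, 5 were analysed, and 1 was past 2-fold, with 3 higher and 2 lower in Mfn1-/- oocytes. The tally turned to 2 higher and 3 lower with the median of expressed genes set to 0 and with equal sums of means. Mcl1, which restrains that release, had means of 3.57 and 1.64 and a log2 fold change of 1.08, which fell under 2-fold, at 0.92, with the median of expressed genes set to 0. Bax, the most abundant, which opens the outer membrane, had means of 6.04 and 3.31 and a log2 fold change of 0.85. Bak1 was not analysed here.

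Over the 7 lists together, 40 of 45 genes were analysed, and 3, or 7.50%, were past 2-fold, against 7.61% over all genes. They were Xaf1, Xkr8 and Mcl1, higher in Mfn1-/- oocytes. The direction depends on the scaling: with the median of expressed genes set to 0, and with equal sums of means, 2 were higher, Xaf1 and Xkr8, and 1 lower, Naip1. The median log2 fold change of the 40 genes was 0.01, with 23 genes higher and 17 lower, against a median of 0.04 over all genes. The tally also depends on the scaling: it was 14 higher and 26 lower with the median of expressed genes set to 0, and 18 and 22 with equal sums of means. Of the 40 genes, 12 had a mean over libraries under 0.1.

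**Figure D4:**
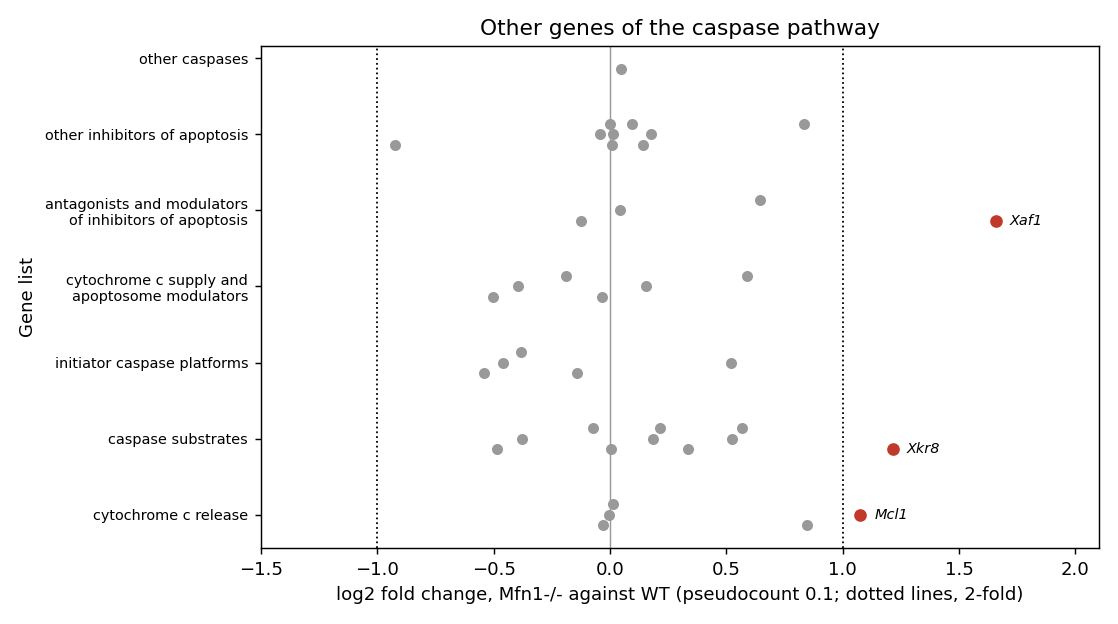
Log2 fold change (Mfn1-/- against WT, pseudocount of 0.1) of the 40 other pathway genes, 1 point per gene, in 7 lists; dotted lines mark 2-fold and vertical offsets within a list only keep points apart. The 3 genes past 2-fold (red) are Xaf1 at 1.66, Xkr8 at 1.22 and Mcl1 at 1.08; with the median of expressed genes set to 0, Mcl1 falls to 0.92.

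Markers of other ovarian cells mostly had low means. In bulk RNA, fewer cells of a type and less RNA per cell cannot be told apart. Of 14 granulosa cell markers, 12 were analysed and 0 were past 2-fold. Their means summed to 2.40 in Mfn1-/- oocytes against 1.78 in WT, mostly from Inha (1.87 and 0.954), and without Inha to 0.527 and 0.827. With a pseudocount of 0.01, the log2 fold changes of Hsd17b1 (-1.66), Cyp19a1 (-1.10) and Foxl2 (1.14) were past 2-fold. The 6 theca and stroma markers analysed of 8 listed summed to 0.223 and 0.221, led by Star (0.0845 and 0.105), and 0 were past 2-fold. The 3 endothelial markers analysed of 4 summed to 0.206 and 0.248, led by Pecam1 (0.168 and 0.188), and 0 were past 2-fold. Of 6 immune cell markers, 4 were analysed, and Cd68, a lysosomal glycoprotein abundant in macrophages, was past 2-fold, with means of 7.58 and 0.672 and a log2 fold change of 3.31. The other 3 summed to 0.0759 in Mfn1-/- oocytes against 0.108 in WT, and Lyz2 was at the lowest mean of 0.01 in Mfn1-/- oocytes. Casp6, Xaf1, Xkr8 and Mcl1 were higher in Mfn1-/- oocytes, as was Cd68, while the 3 other immune markers had low means in both genotypes. The part of other cells in the caspase values was not tested.

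The size of the changes varied with the way they were computed. The settings were pseudocounts of 0.01, 0.1 and 1, no pseudocount, both other scalings and subtraction of the lowest mean, which was added after seeing the data. Pseudocounts and the subtraction leave the order of the means as it is, so only the scalings could change a sign. Under both scalings 7 of the 8 genes kept the sign of their log2 fold change. Xiap lost it with the median of expressed genes set to 0. Casp6 was above 1 in all of the settings but the pseudocount of 1.

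**Figure D5:**
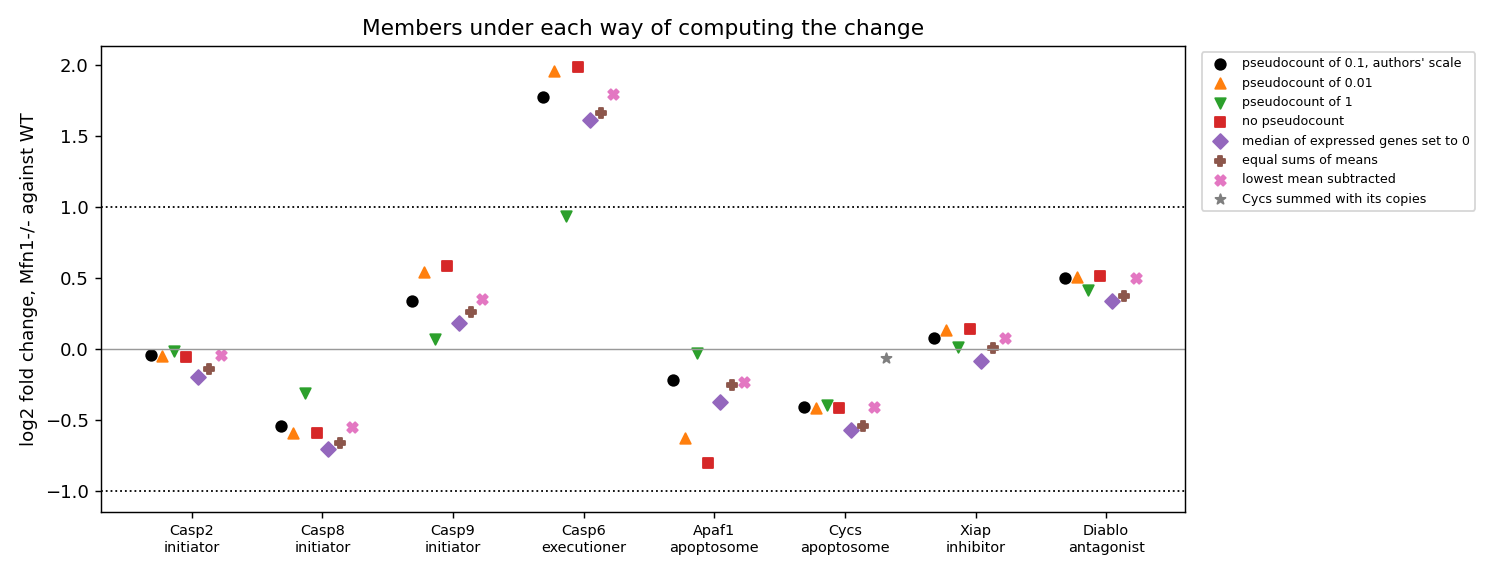
Log2 fold change (Mfn1-/- against WT) of the 8 genes under each way of computing it, 1 symbol per setting; dotted lines mark 2-fold. Casp6 runs from 0.94 with a pseudocount of 1 to 1.99 with none, Apaf1 from -0.80 to -0.03, and Xiap crosses 0, at -0.08 with the median of expressed genes set to 0. The star is the sum of Cycs and its copies, which is mostly Gm10053 (80.5% of it in Mfn1-/- oocytes and 84.6% in WT) and says little about Cycs.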

How the data were processed

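RNA-seq libraries of pooled oocytes were compared between 2 genotypes, grouped by the sample labels. The authors trimmed reads with cutadapt, used STAR for alignment to the mouse genome (GRCm38, mm10) and counted reads per gene on an annotation whose version is not given in the sources used here. Per gene, the authors deposited a signal for each genotype, the normalized counts averaged over its libraries, and a total over libraries. Its remaining 4 value columns hold the authors' own comparison (a p-value, its step-up FDR, a ratio and a signed fold change) and were not used. There were 0 columns of single libraries left unused.

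The log2 fold change was computed from the means after adding a pseudocount of 0.1, with a threshold of 2-fold and no test. The alternatives were pseudocounts of 0.01 and 1 and none, centring on genes with a mean of at least 1, equal sums of means, a 1.5-fold threshold and minimum means of 0.1 and 1. Subtraction of the lowest mean and a sum of Cycs with its copies were added after seeing the data. The genes and lists were chosen with earlier results of these data known, and 2 genes of the planned lists are not reported here. The text names Mfn1, the 8 genes, of each pathway list its most abundant gene and those past 2-fold, of each marker list its most abundant gene, those past 2-fold with a mean of at least 0.1 and those at the lowest mean, and genes that overlap or share sequence with the 8. Other genes of those lists are named where their value is given beside an alternative, and Fadd, Kit and Ddx4 were named after their values were seen. Positions, overlaps and exon lengths came from GENCODE M21, and shared transcript sequence from blastn 2.17.0, with alignments of at least 300 positions, gaps counted, at 95% identity. Python 3.11.15, numpy 2.4.6, pandas 2.3.3 and matplotlib 3.10.9 were used. The formula of the log2 fold change and its 2-fold call were checked on WT means multiplied by known factors, without noise. The other steps were not checked in this way.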

Additional observations from a re-analysis of the deposited data

How the results depend on the processing

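The count of the 8 genes past 2-fold was 1, Casp6, under every setting run except a pseudocount of 1, where it was 0. The minimum mean of 1 says nothing about stability here, since Casp6 passes it only through its Mfn1-/- mean. Of 48 log2 fold changes of single genes recomputed, 47 moved by less than 1.5-fold and kept their side of 2-fold. The 1 that did not was Casp6 with a pseudocount of 1. This tally says little about stability, because the scalings and the subtraction of the lowest mean cannot move a value by 1.5-fold. Apaf1 came close to that limit, going from -0.22 to -0.80 with no pseudocount. Xiap changed sign with the median of expressed genes set to 0. For the 40 genes of the other lists, the count past 2-fold of 3 became 6 with a pseudocount of 0.01 and with none (Birc7, Naip1 and Pidd1 were added), 0 with a pseudocount of 1, 8 with a 1.5-fold threshold and 1, Mcl1, once the 13 genes with means of 1 or more were kept. With the median of expressed genes set to 0 and with equal sums of means it stayed at 3, with Naip1, lower in Mfn1-/- oocytes, in place of Mcl1. Over all genes, 7.61% were past 2-fold with a pseudocount of 0.1, 17.1% with 0.01, 21.0% with none and 1.39% with 1. This share was 7.58% with the median of expressed genes set to 0 and 7.44% with equal sums of means. It was not computed for the 1.5-fold threshold or the minimum means, so the counts under those settings cannot be called high or low. No paired analysis was possible because the labels number the libraries within each genotype but only genotype means were used, and for the same reason no library was left out in turn. The number of reads behind a mean is unknown, which bears most on Apaf1 and the other genes near the lowest mean of 0.01.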
